A study of Mus musculus with 8 samples.

Results

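The genes described here encode the machinery that takes a nascent secretory protein into the endoplasmic reticulum (ER) and out of it again. They are 42 of the 55414 gene IDs in the count table, chosen by name with earlier results of these data known: each symbol was matched to its Ensembl ID through GENCODE M39. By role they are 7 genes of the signal recognition particle (SRP) and its receptor, 7 of the Sec61 channel and its partners, 4 of the translocon-associated protein (TRAP) complex, 5 of signal peptidase, 8 of the oligosaccharyltransferase (OST) and 11 of the COPII coat. RNA was sequenced from sorted Paneth cells, the granule-filled cells at the base of the small intestinal crypts, of 8 C57BL/6J mice. In the water group 4 mice drank Milli-Q water, and in the zinc group 4 mice drank water with 25 mM ZnSO4, in both for 7 days. A mouse gave 1 library, the labels name no other allele or agent, and age was not given in them. Fewer cells of a type and less RNA per cell cannot be told apart in such bulk samples.

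A Paneth cell makes large amounts of lysozyme and α-defensins, which begin as precursors with a signal peptide. SRP binds the signal peptide as it leaves the ribosome and docks at its receptor, the Sec61 channel lets the chain through the ER membrane, signal peptidase removes the signal peptide, and OST adds N-linked glycans to proteins with sites for them. Folded cargo leaves the ER in vesicles shaped by the COPII coat. In secretory cells many genes of this pathway can be induced by transcription factors of the unfolded protein response such as XBP1 and ATF6, whose known elements include an ACGTG core.

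RefSeq promoters (250 bases before to 50 bases after the transcription start, GRCm38.p6) were matched for 34 of the 42 members. Spcs3, Srp19, Srp68, Tram1, Ssr2, Sec11c, Sec61a1 and Ostc had no entry. After the expression values had been seen, 8 patterns related to ER stress elements were searched on both strands. The letters GCCACGT contain CCACG and, read on the other strand, the whole ACGTG core. They were found in 11 of the 34 promoters (32.4%), against 4.72% of the 9313 tested genes with a promoter and 2.95% of all 27025 genes with one. The 12 matches are shown with 10 bases on either side, 5′ to 3′ on the strand of the gene, with the match or its reverse complement ACGTGGC in capitals, because this was the pattern whose share among the members stood furthest above its share among tested genes.
Sar1a (chr10:61680117-61680143, plus strand): gacagacgctGCCACGTcttaccccgc
Sec13 (chr6:113740668-113740694, minus strand): gttttgagctGCCACGTccgaggccgt
Sec23a (chr12:59011993-59012019, minus strand): ctcccctttgACGTGGCagaggcggca
Sec24c (chr14:20674236-20674262, plus strand): cctaaggccgACGTGGCagaaggagtg
Sec24d (chr3:123267462-123267488, plus strand): cgggcgcctgACGTGGCactagcaacc
Sec31a (chr5:100416206-100416232, minus strand): ggctgcggctGCCACGTtggagcggag
Sec63 (chr10:42761463-42761489, plus strand): tgctgcgcgcGCCACGTctccctcagt
Spcs1 (chr14:31001711-31001737, minus strand): ctctgcagcaGCCACGTagggccacaa
Srprb (chr9:103202086-103202112, minus strand): ggagcctagaGCCACGTaactttggcg
Ssr1 (chr13:37994266-37994292, minus strand): gccaccgccgGCCACGTgatctcccgg
Ssr1 (chr13:37994219-37994245, minus strand): gcgcttagagGCCACGTcgacggtggc
Ssr3 (chr3:65392728-65392754, minus strand): gcattgaggcGCCACGTaccctgaagg

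In 9 of the 12 places the letters read GCCACGT on the strand of the gene, and in Sec23a, Sec24c and Sec24d, all genes of the COPII inner coat, they read ACGTGGC. In Sec23a and Sec24d the match overlapped TGACGTG, which was found in 5.88% of the member promoters against 3.25% of those of tested genes. The Ssr1 promoter held GCCACGT at positions -74 and -27 (first base, counted from the transcription start), and it is shown whole because Ssr1 also had the smallest p of all members in the comparison of zinc with water.
Ssr1 promoter (chr13:37994159-37994458, minus strand): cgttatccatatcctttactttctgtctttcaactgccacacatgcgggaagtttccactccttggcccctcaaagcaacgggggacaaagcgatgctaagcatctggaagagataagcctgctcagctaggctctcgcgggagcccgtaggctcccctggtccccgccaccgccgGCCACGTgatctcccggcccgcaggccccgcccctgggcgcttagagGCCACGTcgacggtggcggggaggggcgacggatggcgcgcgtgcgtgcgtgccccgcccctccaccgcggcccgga

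The shorter patterns were common everywhere: TGACGT was in 20.6% of member promoters and 13.4% of those of tested genes, ACGTG in 50% and 29.7%, and CCACG in 67.6% and 52.8%. The full ER stress element, the same element with a spacer of 8 to 10 bases, and the type II element were in 0 of 34 member promoters, and in 0.183%, 0.301% and 0.0966% of those of tested genes. A match is a description of letters in this window and does not show a binding site. The 11 genes with GCCACGT had a median log2 fold change (zinc over water) of 0.14 and the 22 other tested members with a promoter one of 0.09. Their ranges overlapped, at -0.02 to 0.27 and -0.07 to 0.39, with 10 of 11 and 19 of 22 above 0. A link between the pattern and the fold changes was not tested.

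The libraries held 20760764 to 24117111 counts, of which the members took 0.485 to 0.712%. All values called CPM below are depth-scaled counts on the TMM scale, in which 3 counts, taken as the floor of a count of 0, stand for 0.115 to 0.188 CPM. The 28 coding Defa genes took 27.9 to 39.8% of counts, and the TMM factors ran the other way, from 0.764 in water replicate 1 and 0.775 in zinc replicate 1 to 1.21 in water replicate 4 and 1.23 in zinc replicate 4. The treatment was visible in the zinc-responsive genes Mt1, Mt2 and Slc30a1, which rose with log2 fold changes of 3.65, 6.15 and 2.01 (edgeR adjusted p = 0.0259, 0.0198 and 0.0198). Paneth cell markers (6 genes) summed to 323831 to 623781 CPM with water and 306404 to 626216 CPM with zinc. Goblet cell markers (5 genes) summed to 3153 to 4152 CPM with water and 3433 to 5867 CPM with zinc, and stem cell markers (3 genes) to 4160 to 5580 and 2889 to 4235 CPM. Among the 6 plasma cell markers, whose sum of 225 to 280 CPM was nearly all Xbp1, a gene that Paneth cells express too, Mzb1 and Tnfrsf17 had 0 counts in every library. The enterocyte, enteroendocrine, tuft, leukocyte and stromal lists summed to at most 24.7, 104, 120, 34.6 and 0.625 CPM. Of the 43 markers 27 were tested and 0 passed the threshold, and the part of these other cell types in the values below was not tested.

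Paneth cells transcribed every step of this pathway, but at very different levels per length of RNA. On the scale of CPM per kilobase of merged exons (mean of 8 libraries), the 42 members ran from 0.165 for Sec61g to 83.6 for Ddost, a core subunit of OST. Ddost was followed by Ssr3, the γ subunit of TRAP, at 81.1, the OST subunits Rpn1 at 65.2 and Rpn2 at 64.8, and the signal peptidase subunit Spcs3 at 59.9. The ranges of these 5 genes over the 8 libraries overlapped, so their order is not firm. Merged exons include long and rarely used forms, and the length of the canonical GENCODE transcript, tried after the data had been seen, put Sec11c first at 218 and Rpn2 next at 164.

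**Figure D1:**
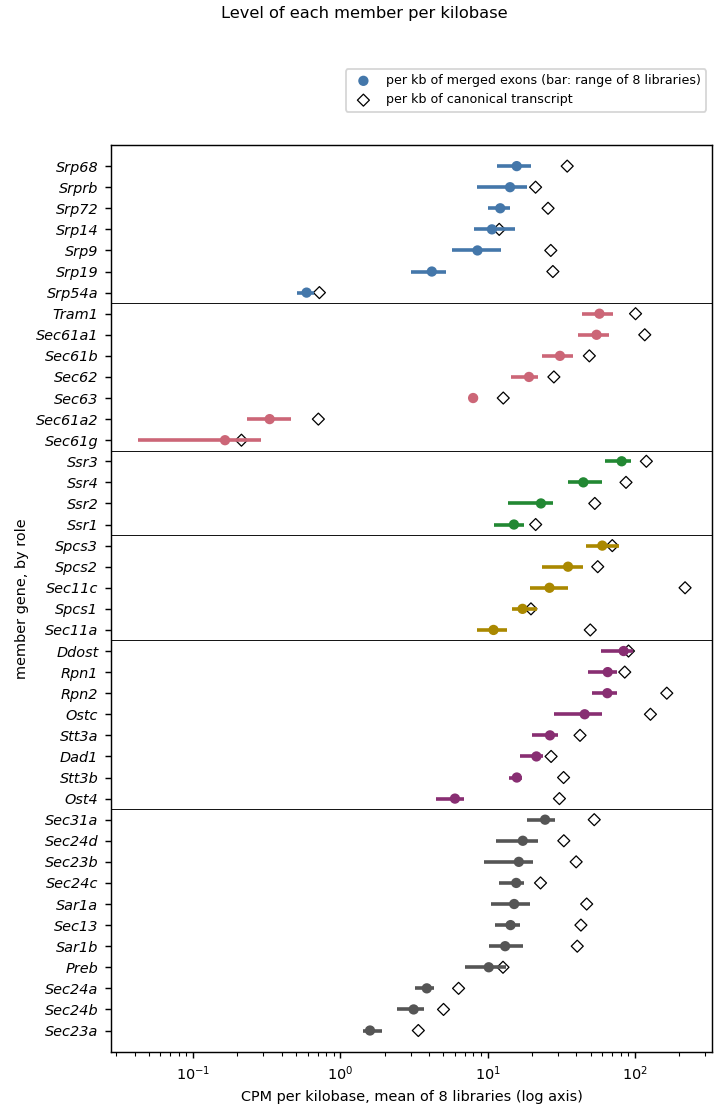
Level of each of the 42 members in CPM per kilobase (log axis), ordered within its role; filled points are the mean of 8 libraries per kilobase of merged exons with a bar for the range of the libraries, and open diamonds are the mean per kilobase of the canonical transcript. Sec61g, Sec61a2 and Srp54a sit below 1 on both length scales, and most other members lie above 10.

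Among the SRP genes, Srp68, which with Srp72 forms a dimer on the SRP RNA, was highest at 15.7 CPM per kilobase, and Srp54a, a copy of the gene for the subunit that binds the signal peptide, was lowest at 0.589. Of the channel genes, Tram1, which encodes a membrane protein beside the channel, stood at 57.3 and Sec61a1, the main pore subunit, at 54.7, while the γ subunit gene Sec61g was at the bottom. Within TRAP the range was from 15.1 for Ssr1, the α subunit, to 81.1 for Ssr3. Signal peptidase ran from 10.9 for the catalytic subunit Sec11a to 59.9 for Spcs3, and OST from 5.99 for its small subunit Ost4 to 83.6 for Ddost. In the COPII coat Sec31a, a subunit of the outer cage, was highest at 24.5 and Sec23a, of the inner coat, lowest at 1.59. On the canonical transcript the highest and lowest members remained the same in SRP, TRAP and COPII, and became Sec61a1 (116) and Sec61g (0.213) for the channel, Sec11c (218) and Spcs1 (19.6) for signal peptidase, and Rpn2 (164) and Dad1 (26.9) for OST.

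Several of these levels are uncertain because the transcripts share sequence with other places in the genome, and the sources used here do not say how reads with several places were treated. Of the 50-base windows of the Srp54a transcript, 77.9% were found elsewhere in GRCm39, mostly in its copies Srp54c and Srp54b. In its coding sequence the share was 55.3%. Srp54a had 45 to 88 counts per library, Srp54c 111 to 203 and Srp54b 0. In the coding sequence, windows found elsewhere made up 100% for Srp9, 76.2% for Sec61b, 74.5% for Sec61g, 25.8% for Ost4, 20.3% for Spcs2 and 8.76% for Spcs1. Over the whole transcript the shares were lower for Srp9 (24.6%), Sec61b (22.4%), Sec61g (15.8%), Ost4 (13.5%) and Spcs2 (6.75%). For Spcs1 it was 10.7%. Sec61g had 2 to 20 counts per library (0.115 to 0.776 CPM), did not pass the low-count filter and was the member not tested. For a further 3 members (Srp19, Ddost and Sec13) the coding share was 0.549 to 1.53%, and it was 0 for the other 32. Among those 32 the share over the whole transcript reached 10.5%, for Ssr2.

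The comparison of zinc with water asked whether the entry and exit machinery of the ER changed in Paneth cells when the mice drank zinc. No member passed the test. Of the 41 members tested, 0 passed the threshold in either direction (edgeR quasi-likelihood test, adjusted over all 11988 genes tested; 0.025% of all genes were called higher and 0.0584% lower), and DESeq2 and limma-voom also called 0. At an unadjusted p below 0.05 there were 0 members with edgeR as set out here, where 1.84% of all genes were higher and 2.81% lower, 0 with DESeq2 and 1 with limma-voom. Other edgeR fits gave 3 without the low-count filter, 3 with the replicate number as a block, 6 without water replicate 1 and 3 without water replicate 2. For these alternatives the share of all genes was not taken, so their counts of members cannot be judged against it. In 0 members did all zinc libraries lie above all water libraries (1.24% of all genes) or all below (1.59%). Most fold changes lay slightly above 0: this held for 37 members, against 51.9% of all genes, and 4 below. The median over the 41 members was 0.11 and the range -0.07 to 0.39, beside a median of 0.0085 over all genes. The standard errors (SE) ran from 0.10 to 0.32 with a median of 0.14, and the edgeR adjusted p was 0.998 for every member.

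**Figure D2:**
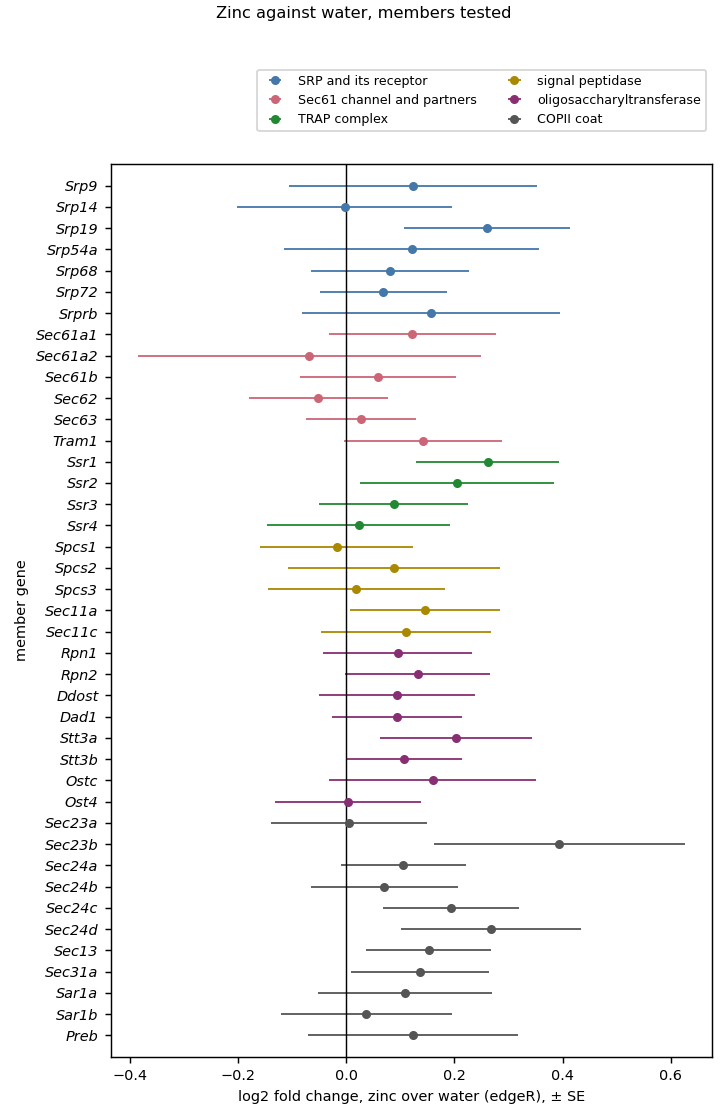
Log2 fold change of zinc over water (edgeR, points) with its SE (bars) for the 41 tested members, coloured by role. Points run from -0.07 for Sec61a2 to 0.39 for Sec23b, and 37 lie above 0 while 0 passed the adjusted threshold.

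The excess of members above 0 rested largely on 2 of the water libraries. Without water replicate 3 the median log2 fold change was 0.03 with 25 of 42 members above 0 (50.6% of all genes), and without water replicate 4 it was 0.03 with 25 of 42 above 0 (50.1% of all genes). When water replicate 1 was left out it was 0.19 with 40 of 42 above 0, and when water replicate 2 was left out 0.17 with 39 of 41. In all of these fits 0 members were called.

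**Figure D3:**
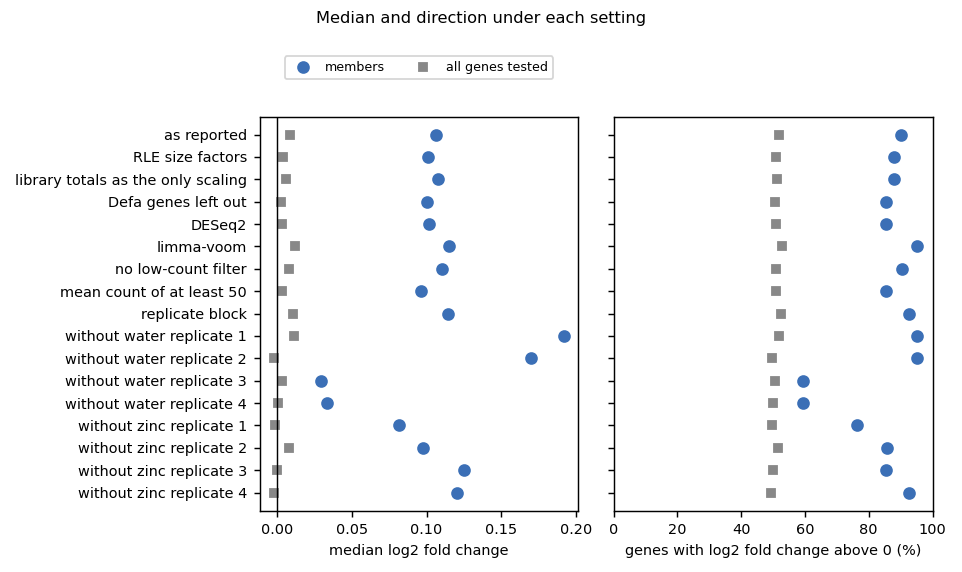
Median log2 fold change (left) and percentage of genes above 0 (right) for the members (circles) and for all genes tested (squares) under each setting. The circles drop towards the squares when water replicate 3 or 4 is left out, to medians of 0.03, and are highest without water replicate 1, at 0.19.

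Summed over the 42 members, the level was 6584, 6306, 4549 and 4729 CPM in water replicates 1 to 4 (mean 5542 ± 1051, SD, n = 4) and 6299, 6179, 5752 and 5814 CPM in zinc replicates 1 to 4 (6011 ± 269, SD, n = 4). Water replicates 1 and 2 were the highest of all 8 libraries and water replicates 3 and 4 the lowest, so the zinc group lay inside the range of the water group. On the TMM scale, water replicate 3 was the lowest of the 8 libraries in 16 of the 41 tested members (15.8% of all genes) and water replicate 4 in 20 (15.5% of all genes). The SD of log2 CPM was larger with water than with zinc in 40 members (60.2% of all genes), with a median of 0.30 with water and 0.14 with zinc over the members and 0.25 and 0.21 over all genes.

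The difference in spread changed with the scaling. The SD was larger with water in 40 of 41 members with RLE size factors and also with the Defa genes left out of the TMM factors, both added after seeing the data. When each library was scaled by its total alone, likewise added, it was larger in 20 of 41 members (53.7% of all genes), and the median SD was 0.24 with water and 0.26 with zinc. The lowest library was then water replicate 3 in 20 members, water replicate 1 in 10, zinc replicate 1 in 10 and water replicate 4 in 0. As plain shares of counts, the members took 0.503, 0.641, 0.485 and 0.573% with water and 0.488, 0.616, 0.604 and 0.712% with zinc.

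**Figure D4:**
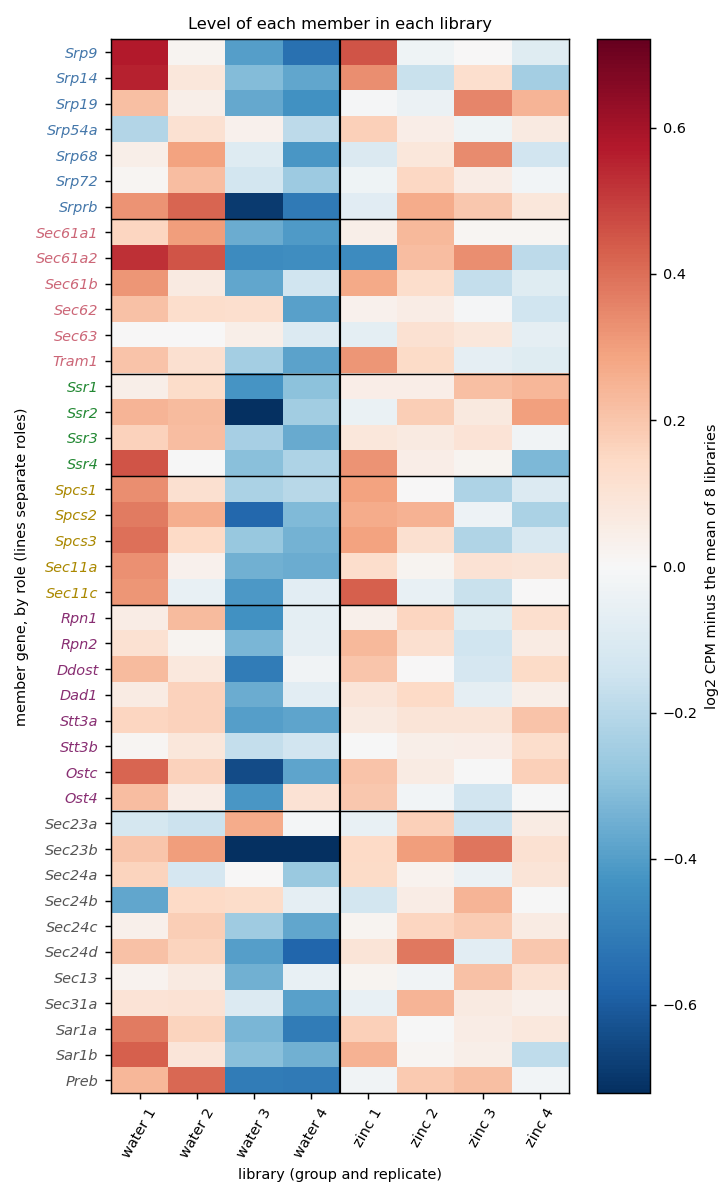
Log2 CPM (TMM scale) of each tested member in each library minus the mean of its 8 libraries, with members in rows by role and libraries in columns. Water replicates 3 and 4 are blue (low) in most rows and hold the lowest value of 16 and 20 members, while members such as Sec63, Sec62, Sec23a and Sec24b differ from that picture in 1 or both of them.

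Of the SRP genes, 6 of 7 were above 0 and 1 below (median log2 fold change 0.12), and 0 were called. Srp19 (ENSMUSG00000014504, GRCm39 chromosome 18, 34463837 to 34470906, on the plus strand with 4 merged exons), whose protein binds the SRP RNA and helps load the signal peptide-binding subunit, stood at 29.0, 25.8, 19.4 and 18.5 CPM in water replicates 1 to 4, and the zinc libraries, in the same order, at 24.8, 24.3, 31.8 and 29.6 CPM. The lowest 2 libraries were water replicates 3 and 4, the other 6 overlapped, and the log2 fold change was 0.26 (SE 0.15). Srp14 (ENSMUSG00000009549, chromosome 2, 118303477 to 118310192, minus strand, 6 merged exons), which with Srp9 forms the dimer that slows elongation, had 62.7, 45.2, 34.3 and 32.9 CPM with water and 53.8, 38.2, 46.4 and 36.0 CPM with zinc. Replicate 1 was highest in both groups. Its log2 fold change was -0.0031 (SE 0.20). Srp9 itself was highest in the same 2 libraries, at 81.1 CPM in water replicate 1 and 74.8 CPM in zinc replicate 1, and 37.6 to 55.2 CPM in the others. Srp54a, Srp68, Srp72 and the receptor subunit gene Srprb had log2 fold changes of 0.07 to 0.16, and Srprb was among the most variable members, with a 2.16-fold range from water replicate 3 to water replicate 2.

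Among the channel genes, 4 of the 6 tested were above 0 and 2 below (median 0.04). Sec61a1 had 406, 449, 285 and 275 CPM with water and 376, 428, 368 and 368 CPM with zinc (log2 fold change 0.12, SE 0.15). Water replicates 3 and 4 were below all zinc libraries and water replicate 2 above them. Sec61a2 (ENSMUSG00000025816, chromosome 2, 5874426 to 5900243, minus strand, 13 merged exons), the gene for a second form of the pore subunit, had 3.75, 3.57, 1.90 and 1.91 CPM with water and 1.90, 3.04, 3.28 and 2.29 CPM with zinc. Its groups covered the same range, on 32 to 83 counts per library, and the log2 fold change was -0.07 (SE 0.32). Sec62 (ENSMUSG00000027706, chromosome 3, 30847022 to 30876314, plus strand, 10 merged exons), which with Sec63 helps precursors that enter poorly on their own, was at 158, 148, 148 and 104 CPM with water and 139, 141, 135 and 123 CPM with zinc. Water replicate 4 was lowest, the other values overlapped, and the log2 fold change was -0.05 (SE 0.13). Sec63 was the steadiest of the tested members, with a 1.15-fold range over the 8 libraries (72.1 to 83.3 CPM). Sec61b and Tram1 had log2 fold changes of 0.06 and 0.14.

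All 4 TRAP genes were above 0 (median 0.15), and 0 were called. Ssr1 (ENSMUSG00000021427, chromosome 13, 38149556 to 38178224, minus strand, 12 merged exons) had 201, 215, 146 and 159 CPM with water and 202, 203, 228 and 231 CPM with zinc. Water replicate 2 lay inside the zinc range, water replicate 1 just under it, and water replicates 3 and 4 well below it. The log2 fold change was 0.26 (SE 0.13), with the smallest p of the 41 members (edgeR adjusted p = 0.998). The β subunit gene Ssr2 ranged from 92.1 CPM in water replicate 3 to 186 CPM in zinc replicate 4 (log2 fold change 0.20), and Ssr3 and Ssr4 had log2 fold changes of 0.09 and 0.02.

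Of the signal peptidase genes, 4 of 5 were above 0 (median 0.09). Spcs1 (ENSMUSG00000021917, chromosome 14, 30718991 to 30723629, minus strand, 2 merged exons), an accessory subunit gene, was below, with 93.3, 80.1, 63.0 and 64.3 CPM with water and 90.3, 74.2, 63.4 and 69.2 CPM with zinc. Replicate 1 was highest in each group, the groups overlapped over nearly their whole range, and the log2 fold change was -0.02 (SE 0.14). Spcs2, Spcs3, Sec11a and Sec11c had log2 fold changes of 0.09, 0.02, 0.15 and 0.11. In Sec11c, as in Srp9, the library with the highest level was a replicate 1: 250 CPM in zinc replicate 1 and 230 CPM in water replicate 1, against 139 to 186 CPM elsewhere.

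All 8 OST genes were above 0 (median 0.10), from 0.0029 for Ost4 to 0.20 for Stt3a. Stt3a, the catalytic subunit that works beside the translocon, had 273, 275, 186 and 188 CPM with water and 257, 262, 262 and 282 CPM with zinc (log2 fold change 0.20, SE 0.14). Stt3b, the catalytic subunit of the complex that glycosylates skipped sites, had 159, 167, 140 and 143 CPM with water and 158, 163, 163 and 173 CPM with zinc (log2 fold change 0.11, SE 0.11). In both genes water replicates 3 and 4 were under all other libraries. The widest spread belonged to Ostc, the subunit that ties Stt3a to the channel, with 84.4 CPM in water replicate 3 and 177 CPM in water replicate 1. Rpn1, Rpn2, Ddost and Dad1 had log2 fold changes of 0.09 to 0.13, and all 4 were lowest in water replicate 3.

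All 11 COPII genes were above 0 (median 0.12), and 0 were called. Sec23b (ENSMUSG00000027429, chromosome 2, 144391970 to 144432684, plus strand, 25 merged exons), the gene of the inner coat protein that activates the GTPase of Sar1, had 123, 132, 65.2 and 65.1 CPM with water and 119, 132, 140 and 116 CPM with zinc. Water replicates 3 and 4 stood far below the other 6 libraries, which lay together. Its log2 fold change of 0.39 was the largest of the members (SE 0.23, edgeR adjusted p = 0.998). Without the low-count filter its edgeR adjusted p was 0.374.

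The Sec24 proteins pick the cargo. Sec24d (ENSMUSG00000039234, chromosome 3, 123061103 to 123159291, plus strand, 27 merged exons) had 145, 140, 95.3 and 84.5 CPM with water and 134, 163, 119 and 143 CPM with zinc (log2 fold change 0.27, SE 0.17, edgeR adjusted p = 0.998). Sec24c (ENSMUSG00000039367, chromosome 14, 20724316 to 20744920, plus strand, 25 merged exons) had 105, 116, 85.6 and 78.7 CPM with water and 104, 114, 116 and 107 CPM with zinc (log2 fold change 0.19, SE 0.13, edgeR adjusted p = 0.998). In both genes water replicates 3 and 4 were lowest and the other 2 water libraries lay among the zinc libraries. The paralogues Sec24a (34.5 to 46.5 CPM) and Sec24b (20.1 to 30.9 CPM) had log2 fold changes of 0.11 and 0.07, and Sec24b was lowest in water replicate 1. Sec23a, unlike Sec23b, was higher in water replicates 3 and 4 than in water replicates 1 and 2, with 13.1, 12.8, 17.3 and 14.2 CPM, and had 13.8, 16.1, 12.9 and 14.9 CPM with zinc (log2 fold change 0.0053, SE 0.14). The outer coat genes Sec13 and Sec31a had log2 fold changes of 0.15 and 0.14, the Sar1 GTPase genes Sar1a and Sar1b 0.11 and 0.04, and Preb, whose protein loads Sar1 with GTP, 0.12.

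Where the pathway has alternative subunits, the ratio of their counts within a library does not depend on scaling. A difference in mean log2 ratio between zinc and water was detected in 0 of 6 such ratios (exact two-sided permutation tests of log2 ratios, n = 4 each, p = 0.371 to 0.657, 0.514 to 0.657 after Benjamini-Hochberg adjustment over 6, where 0.0286 is the smallest p the design allows). With 4 mice per group this does not show that the ratios were equal. Transcripts of Sec61a1 stood 170-fold above those of Sec61a2 per kilobase. Sec11c, the other catalytic subunit of signal peptidase, was 2.39-fold above Sec11a, or 4.38-fold on canonical transcripts. Sec23b exceeded Sec23a 9.90-fold, and Sec24c and Sec24d together exceeded Sec24a and Sec24b 4.65-fold. Stt3a and Stt3b were closer, at 1.66-fold, and Sar1a and Sar1b closest, at 1.15-fold. On canonical transcripts these were 1.28-fold and 1.16-fold.

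The log2 ratio of Stt3a to Stt3b was 0.78, 0.72, 0.41 and 0.39 with water (replicates 1 to 4) and 0.70, 0.68, 0.68 and 0.71 with zinc. The zinc libraries were nearly alike, and water replicates 3 and 4 were low. The difference between the group means was 0.12 (SE 0.10, exact two-sided permutation p = 0.429). The log2 ratio of Sec23a to Sec23b was -3.23, -3.37, -1.92 and -2.20 with water and -3.11, -3.03, -3.44 and -2.96 with zinc (difference -0.46, SE 0.38, exact two-sided permutation p = 0.371). For Sec24c plus Sec24d over Sec24a plus Sec24b it was 1.91, 1.93, 1.36 and 1.46 with water and 1.77, 2.00, 1.72 and 1.83 with zinc (difference 0.16, SE 0.16, exact two-sided permutation p = 0.371). In these 3 ratios water replicates 3 and 4 lay apart from all 6 other libraries, and the SD was larger with water than with zinc (0.20 and 0.014 for Stt3, 0.73 and 0.21 for Sec23, 0.30 and 0.12 for Sec24).

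**Figure D5:**
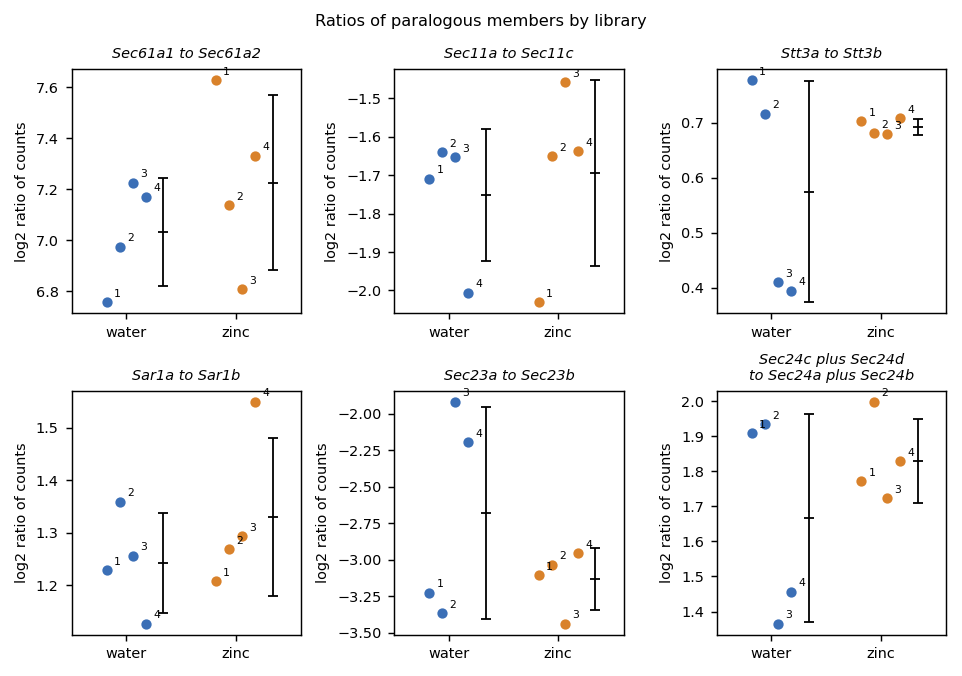
Log2 ratio of counts of paralogous members in each library (points, numbered by replicate) with the mean and SD of 4 libraries per group (bars). In the panels for Stt3a to Stt3b, Sec23a to Sec23b and the Sec24 pairs, water replicates 3 and 4 lie apart from the other 6 libraries; in the other 3 panels they do not.

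The other 3 ratios did not separate those libraries. Sec61a1 to Sec61a2 had a mean log2 ratio of 7.03 ± 0.21 with water against 7.23 ± 0.34 with zinc (SD of 4 libraries, exact permutation p = 0.400). Sec11a to Sec11c had -1.75 ± 0.17 and -1.69 ± 0.24 (SD of 4 libraries, exact permutation p = 0.657), and it was lowest in zinc replicate 1 and water replicate 4, at -2.03 and -2.01. Sar1a to Sar1b had 1.24 ± 0.095 and 1.33 ± 0.15 (SD of 4 libraries, exact permutation p = 0.429).

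Other genes of the early secretory pathway gave similar values. Of 70 listed genes, 69 were tested, 0 were called (edgeR adjusted p of 0.998 for each), 54 had a log2 fold change above 0 (51.9% of all genes) and the median was 0.10. As for the members, this count moved with single libraries. It was 45 of 69 without water replicate 3 (median 0.035, with 50.6% of all genes above 0) and 43 without water replicate 4 (0.025, 50.1%). It was 46 without zinc replicate 1 (0.055, 49.7%) and 62 without water replicate 1 (0.16, 52.0%). Of 28 tested genes of ER entry, such as Sec61 cofactors and the ER membrane protein complex (EMC), 22 were above 0 (median 0.07), and the smallest p was that of Emc7, an EMC subunit gene (log2 fold change 0.24, SE 0.12). Of the 4 other OST subunit genes 2 were above 0, with the smallest p for Magt1, which encodes an oxidoreductase of the Stt3b complex (0.10, SE 0.13). Of 22 genes of ER exit sites and cargo receptors 17 were above 0 (median 0.07). Creb3l1, a transcription factor gene linked to secretory capacity, had the smallest p there (0.36, SE 0.16, edgeR adjusted p = 0.998), and its highest value, 206 CPM in zinc replicate 4, stood above 103 to 136 CPM in the other 7 libraries. Of 15 genes of the COPI coat and retrieval, which carry proteins back from the Golgi to the ER, 13 were above 0 (median 0.12), with the smallest p for the coat subunit gene Arcn1 (0.18, SE 0.13).

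The chaperone genes Hspa5 and Hyou1, named after their values had been seen, were also low in water replicates 3 and 4. Hspa5, which encodes the ER chaperone BiP, had 783, 871, 409 and 339 CPM with water and 624, 731, 915 and 767 CPM with zinc (log2 fold change 0.34, SE 0.29). Hyou1, whose protein exchanges the nucleotide of BiP, had 233, 268, 119 and 98.1 CPM with water and 169, 260, 277 and 225 CPM with zinc (log2 fold change 0.38, SE 0.35). Other genes differed from that picture. Xbp1 had 263, 245, 235 and 221 CPM with water and 273, 252, 251 and 225 CPM with zinc, and the ER entry genes Sgta and Bag6 were lowest in water replicate 1. The part of any of these genes in the members' values was not tested.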

How the data were processed

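Counts per Ensembl gene ID were deposited by the authors as 1 table of whole numbers, not normalized, with 1 column per library. Libraries were made with a stranded mRNA kit. The submitters' processing notes name FastQC 0.12.0, STAR 2.7.0a, DESeq2 and the build mm39; the study's methods name another release of STAR, and Salmon for transcript-level TPM values, and the sources used here tie no counting program to this table. IDs were matched to GENCODE M39 (54749 of 55414 IDs, at least 99.99% of counts). The labels gave the groups and replicate numbers.

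Zinc was compared with water in edgeR 4.0.16 (R 4.3.3) with filterByExpr (minimum count 10), TMM scaling, a robust quasi-likelihood fit with the treatment only, and Benjamini-Hochberg adjustment over 11988 genes (threshold 0.05). The 6 paralogue ratios were tested by exact permutation over 70 assignments. Alternatives were RLE size factors, library totals, Defa genes left out, DESeq2 1.42.0, limma-voom 3.58.1, a block for the replicate number, each library left out, no filter, and a minimum mean count of 50. The procedure was tested on simulated data with changes larger than that of any member, so it does not show whether changes of the members' size would be found. The members and lists were chosen with earlier results of these data known. Values in all 8 libraries were given for the 5 members with the smallest p in each direction (only 4 were below 0), and names for the highest and lowest member per length of each role, all members of the ratios and the smallest p of each other list. No library pair in a group agreed within sampling noise. No molecular identifiers were used, so limits from a count of 0 cover counting error only.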

Additional observations from a re-analysis of the deposited data

Results flagged for a closer look

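The members, the ratios and the summed levels were examined for single libraries that stood apart (Dixon's test, 95% level, within each group of 4), which made 98 groups. It singled out 1 library in 2 of them, where chance alone singles out about 1 in 20. Srp9 stood at 74.8 CPM in zinc replicate 1, while the other zinc libraries had 51.3 to 54.7 CPM, and all of its coding windows occur elsewhere in the genome. Sec61a1 stood at 428 CPM in zinc replicate 2, while the other zinc libraries had 368 to 376 CPM.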

How the results depend on the processing

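Under all 16 alternatives 0 members passed the threshold and the median log2 fold change of the members was above 0, from 0.03 to 0.19 with single libraries left out and from 0.096 to 0.115 otherwise. The count below 0 was 4, also without the low-count filter. It was 5 with RLE size factors and with library totals. With the Defa genes left out, with DESeq2 and with a mean count of at least 50 it was 6. It was 3 with the replicate block, 2 with limma-voom and 2 to 17 with single libraries left out. The count with a larger SD with water was 40, 40 with RLE size factors, 40 with the Defa genes left out, 20 with library totals and 34 to 40 with single libraries left out, all added after seeing the data. In 25 members the log2 fold change changed sign when 1 library was left out; 16 kept theirs. The lowest and highest values were, in log2, Srp9 -0.019 to 0.39, Srp14 -0.12 to 0.22, Srp68 -0.035 to 0.20, Srp72 -0.0061 to 0.15, Srprb -0.014 to 0.34, Sec61a2 -0.22 to 0.10, Sec61b -0.050 to 0.18, Sec62 -0.17 to 0.010, Sec63 -0.0051 to 0.053, Ssr3 -0.011 to 0.18, Ssr4 -0.090 to 0.20, Spcs1 -0.13 to 0.10, Spcs2 -0.062 to 0.24. They were Spcs3 -0.086 to 0.17, Sec11c -0.034 to 0.25, Rpn1 -0.022 to 0.19, Ddost -0.040 to 0.19, Dad1 -0.0046 to 0.16, Ostc -9.1e-05 to 0.35, Ost4 -0.12 to 0.078, Sec23a -0.053 to 0.10, Sec24b -0.028 to 0.12, Sar1a -0.024 to 0.27, Sar1b -0.066 to 0.21, Preb -0.010 to 0.30 for the rest. Those that kept their sign ran, in log2, Srp19 0.16 to 0.38, Srp54a 0.073 to 0.17, Sec61a1 0.016 to 0.25, Tram1 0.043 to 0.24, Ssr1 0.17 to 0.35, Ssr2 0.036 to 0.33, Sec11a 0.055 to 0.30, Rpn2 0.047 to 0.19, Stt3a 0.11 to 0.29, Stt3b 0.063 to 0.15, Sec23b 0.24 to 0.58, Sec24a 0.035 to 0.18, Sec24c 0.11 to 0.29, Sec24d 0.14 to 0.39, Sec13 0.066 to 0.19, Sec31a 0.037 to 0.19. The zinc minus water log2 ratio of Sec11a to Sec11c ran from -0.027 to 0.17 with single libraries left out. Other settings turned these: Ost4 to -0.0024 (RLE size factors), -0.00070 (library totals), -0.0031 (Defa genes left out), -0.0024 (DESeq2) and -0.0069 (mean count of at least 50); Sec23a to -0.0041 (library totals), -0.0011 (Defa genes left out), -0.00026 (DESeq2) and -0.0062 (mean count of at least 50); Srp14 to 0.020 (library totals), 0.036 (limma-voom) and 0.026 (replicate block); and Sec61a2 to 0.037 (limma-voom). The cause was not tested.

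With the replicate number as a block, 0 members were called and 38 were above 0, against 52.5% of all genes. The median was 0.11 over the members and 0.011 over all genes. In this fit 3 members had an unadjusted p below 0.05, and the smallest adjusted p of a member was 0.580 (edgeR). The share of all genes with such an unadjusted p was not taken, so this count of members cannot be judged against it. Among all 11988 genes, blocking raised the calls from 3 higher and 7 lower to 6 higher and 26 lower. Deviations of same-numbered libraries correlated at 0.23, 0.000055, 0.13 and 0.26 over genes, with 1 of the 4 under 0.1. Libraries numbered 1, 3 and 4 correlated best with their own number, and TMM factors and Defa shares were also close by number. This is a hint of pairing from the data that the labels do not give. Water replicate 2 correlated at -0.0036 to 0.0025 with every zinc library, so its low value cannot decide on pairing. The treatment-only fit was kept because not every pair passed 0.1, but only replicate 2 failed this, and it does not settle pairing. The ratio tests used no pairing either. If the libraries were paired, the main fit and the ratio tests ignored it. Levels of Srp54a, Srp9, Sec61b and Sec61g depend on how shared reads were counted.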
